A study of Rattus norvegicus with 9 samples.

Results

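Apolipoproteins are the proteins that coat the lipid particles of blood plasma, and the liver makes most of them. Apob forms the scaffold of the triglyceride-rich particles that hepatocytes secrete, Apoa2 is a major protein of high-density lipoprotein, and Apoe and the small Apoc proteins move between particles and steer their uptake and breakdown. Hepatocytes express these genes strongly, and they are used as markers of the differentiated state of the cell. Of the 10 listed genes (Apoa2, Apoa4, Apoa5, Apob, Apoc1, Apoc3, Apoe, Apof, Apoh and Apom), matched by symbol, 9 were measured by 1 probe set each among 18166 named genes. The list was drawn up with earlier results of these data known. Apoc3 was not analysed here. All 9 passed the filter on dim genes, which left 15793 genes for testing.

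The arrays came from female F344 rats, all of which had been dosed with retrorsine (30 mg/kg, 2 injections with 2 weeks between them) and hepatectomised in part 4 weeks later. Retrorsine is a plant alkaloid that blocks the division of hepatocytes, and such livers form clusters of SHPCs, small progenitor cells that resemble hepatocytes. The 3 groups, of 3 arrays each, were SHPC clusters of livers that had been given sorted Thy1+ cells through the spleen, from DPPIV+ donors into DPPIV- recipients, SHPC clusters of livers without such cells, and hepatocytes beside SHPCs in livers without such cells. The cells were cut by laser under the microscope from sections 7 µm thick and stained with hematoxylin. The labels tie no array to an animal, so p-values measure the spread between arrays, which may be technical. The description of the hepatocyte arrays speaks of SHPCs with transplantation, whereas their cell type and titles make them controls without it, and the cell type was followed. SHPCs of transplanted livers and hepatocytes thus differ in cell type and in transplantation at once, and these cannot be told apart.

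Levels are given as the log2 of the authors' RMA intensity. SHPC array 2 and hepatocyte array 2 stood apart, with a median intensity of 24.1 and 23.0 against 19.6 to 20.6 on the other 7 arrays. Bright genes were read low on both: among the 2647 genes with a mean log2 level of 7.02 or more, SHPC array 2 was the lowest of its group for 90.7% and hepatocyte array 2 for 82.6%. SHPC array 2 was the lowest of its group for 9 of the 9 apolipoprotein genes, and hepatocyte array 2 for 5 of 9. Of 10 hepatocyte markers 9 were measured, and none of them lay below the array median throughout. Their summed intensity was 45142 to 46732 in SHPCs of transplanted livers, 38950 to 44880 in SHPCs and 39260 to 43363 in hepatocytes.

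Apoa2 stood out among the apolipoprotein genes: its mean log2 level was 10.84 in SHPCs of transplanted livers and 10.75 in SHPCs, against 11.79 in the hepatocytes beside them, while Apoa5, Apob, Apoc1, Apoe and Apoh differed little between any of the groups. Apoa4 went the other way and was higher in SHPCs than in hepatocytes. Fitted over all 9 arrays, none of the 9 had a limma adjusted p under 0.05 in any of the 3 comparisons. Because a tissue piece is measured whole, fewer cells of a type and less RNA per cell cannot be told apart.

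**Figure D1:**
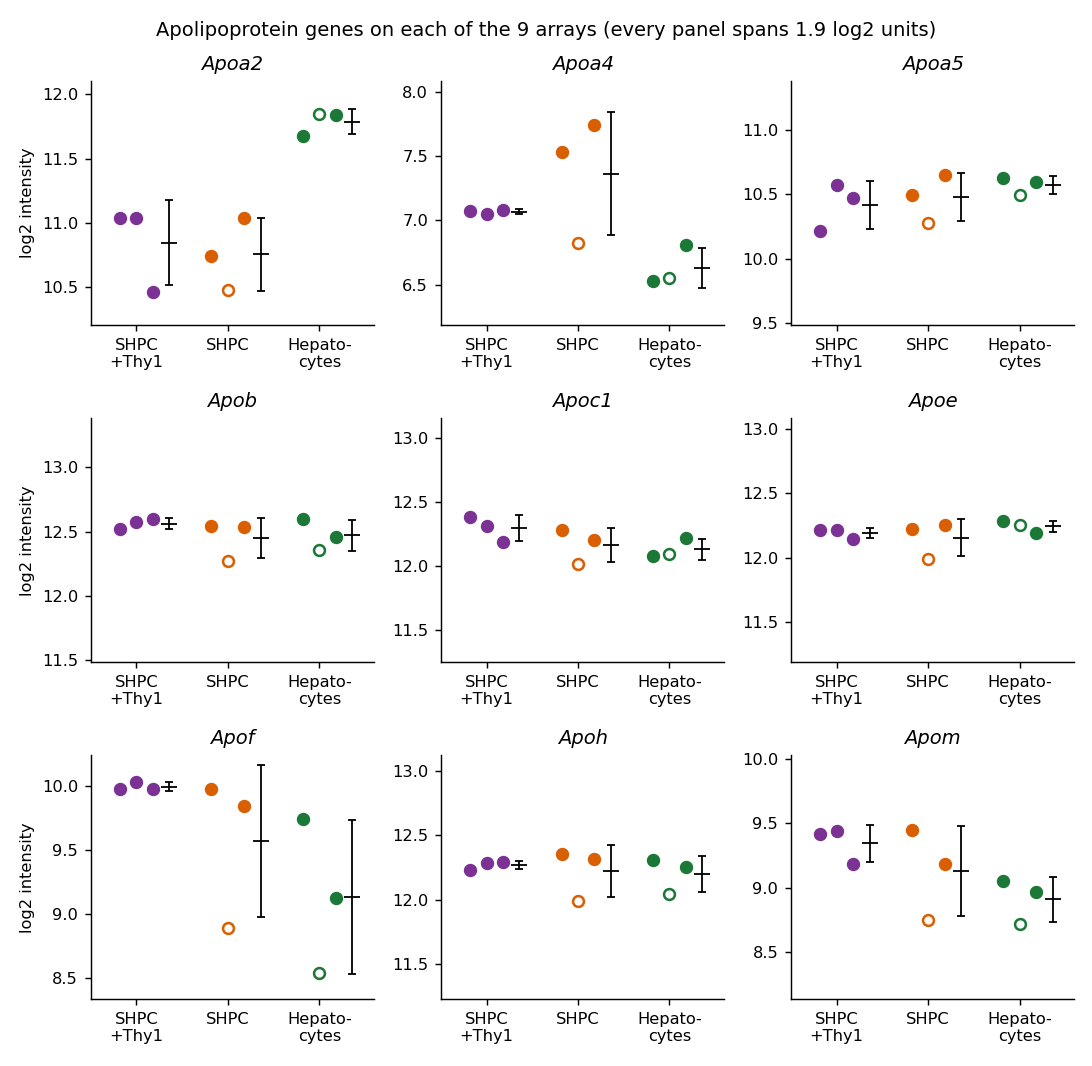
Log2 intensity of each apolipoprotein gene (y axis) on each array, with SHPCs of transplanted livers left, SHPCs in the middle and hepatocytes right, arrays 1 to 3 from left to right within a group, and the mean ± SD in black (n = 3). Open circles mark SHPC array 2 and hepatocyte array 2, which stood apart. The 6 SHPC arrays of Apoa2 all lie below its 3 hepatocyte arrays, and SHPC array 2 is the lowest of its group in every panel.

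Apoa2 (probe set 17681861) had log2 levels of 11.04, 11.04 and 10.46 in SHPCs of transplanted livers, 10.74, 10.48 and 11.04 in SHPCs, and 11.68, 11.84 and 11.84 in hepatocytes. Every SHPC array of either kind lay below every hepatocyte array, and the 2 SHPC groups overlapped. On the linear scale the mean intensity was 1870 in SHPCs of transplanted livers, 1749 in SHPCs and 3542 in hepatocytes.

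Against hepatocytes, SHPCs had 2.05-fold less Apoa2, a log2 difference of −1.03 ± 0.20 (SE, 95% interval −1.47 to −0.60). Ordered by limma p-value it was number 36 of the 15793 genes, and its limma adjusted p was 0.167. SHPC and hepatocyte arrays of the same number deviated together from their group means, but the labels do not state that they are pairs. Pair 2, with the highest r (0.70), holds both arrays that stood apart. SHPC array 3 correlated more with hepatocyte array 1 (r = 0.48) than with its own number (r = 0.34). Within the 3 numbered pairs the Apoa2 difference was −0.94, −1.36 and −0.80. In a fit of these 6 arrays with the pair as a block, chosen after seeing the data, Apoa2 passed (limma adjusted p = 0.0331), and 77 genes did, against 10 as reported. Without both arrays that stood apart the difference was −0.87 (limma adjusted p = 0.215).

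SHPCs of transplanted livers had 1.92-fold less Apoa2 than hepatocytes, a log2 difference of −0.94 ± 0.20 (SE, 95% interval −1.38 to −0.51, limma adjusted p = 0.0595). By limma p-value Apoa2 was number 199 of the 15793 genes in this comparison. The call depended on the setting: the adjusted p was 0.0222 without SHPC array 2, 0.0228 after renewed quantile normalization and 0.242 after median centring, with differences between −1.15 and −0.75 over the 19 alternatives. Between SHPCs with and without transplantation Apoa2 differed by 0.09 ± 0.20 (SE, 95% interval −0.35 to 0.53, limma adjusted p = 0.892), a direction that turned to −0.16 after cyclic loess and to −0.0092 after renewed quantile normalization. Both comparisons with hepatocytes use the same 3 hepatocyte arrays.

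**Figure D2:**
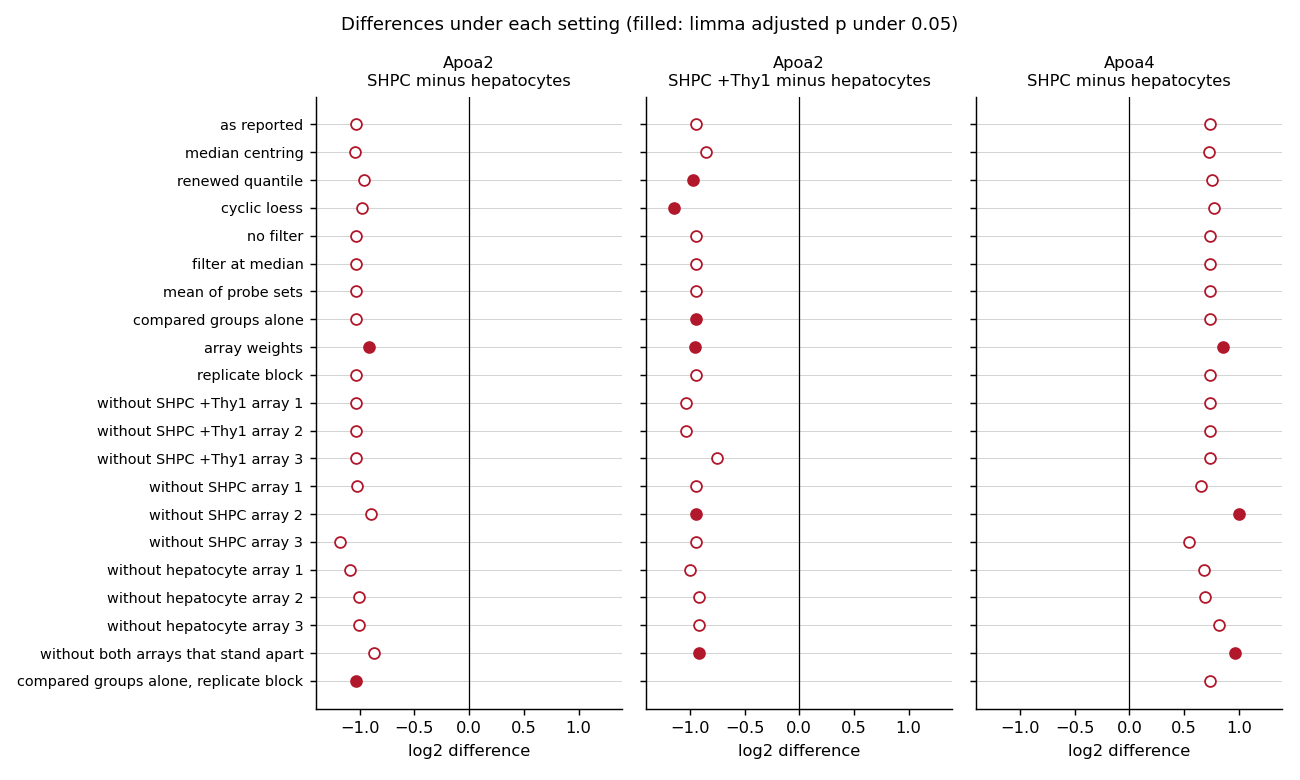
Log2 difference (x axis) of Apoa2 in SHPCs minus hepatocytes (left) and in SHPCs of transplanted livers minus hepatocytes (middle), and of Apoa4 in SHPCs minus hepatocytes (right), under each setting (rows). Filled points have a limma adjusted p under 0.05. Apoa2 lies between −1.18 and −0.87 in the left panel and between −1.15 and −0.75 in the middle one, and Apoa4 between 0.55 and 1.00, so that the sign stays the same throughout while the call does not.

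Measured within each array against the mean log2 level of the other 7 apolipoprotein genes without Apoa4, a description chosen after the values were seen, Apoa2 lay at −0.24, −0.31 and −0.80 in SHPCs of transplanted livers. It lay at −0.59, −0.40 and −0.24 in SHPCs and at 0.44, 0.92 and 0.73 in hepatocytes. The SHPC arrays of both kinds were all below the hepatocyte arrays, in values that hold the same Apoa2 levels. The reference includes Apof and Apom, which were higher in SHPCs of transplanted livers than in hepatocytes (0.86 and 0.44). The gap is therefore wider than that of Apoa2 itself.

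The genes outside the list whose log2 levels followed Apoa2 most closely over the 9 arrays were Rup2 (Pearson r = 0.951), Cyp2e1 (0.949), Mgmt (0.947), Hsd3b7 (0.946) and Xiap (0.936). These values are descriptive, since the 9 points share their 3 groups and their arrays. Cyp2e1, a cytochrome P450 of the hepatocytes around the central vein, averaged 11.38 in SHPCs of transplanted livers, 11.39 in SHPCs and 12.03 in hepatocytes. Mgmt, a DNA repair enzyme, averaged 7.50, 7.46 and 8.52 in the same order of groups, and Hsd3b7, an enzyme of bile acid synthesis, 6.74, 6.79 and 7.51. Each of these 3 genes was lower in both SHPC groups than in hepatocytes, as Apoa2 was. They were picked for their correlation with Apoa2, so a shared pattern of groups follows from the choice.

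Apoa4, which in rats is made by the intestine and by the liver, had log2 levels of 7.07, 7.05 and 7.08 in SHPCs of transplanted livers. The levels were 7.53, 6.83 and 7.74 in SHPCs and 6.53, 6.55 and 6.81 in hepatocytes. Both SHPC groups lay wholly above the hepatocytes, and the transplanted arrays lay inside the range of the SHPC arrays.

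In SHPCs Apoa4 was 1.66-fold higher than in hepatocytes, a log2 difference of 0.73 ± 0.21 (SE, 95% interval 0.26 to 1.21, limma adjusted p = 0.651). Much of the spread came from SHPC array 2, which lay only 0.27 above its numbered hepatocyte partner, against 1.00 and 0.93 for pairs 1 and 3. Without SHPC array 2 the difference was 1.00 (limma adjusted p = 0.0304), and without both arrays that stood apart it was 0.97 (limma adjusted p = 0.0387). In SHPCs of transplanted livers it was 1.35-fold higher than in hepatocytes (log2 difference 0.44 ± 0.21 SE, limma adjusted p = 0.531), and against SHPCs without transplantation it differed by −0.30 ± 0.21 (SE, limma adjusted p = 0.724). That last difference was −0.57 without SHPC array 2.

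Of 6 enterocyte markers 5 were measured, and Vil1, Lct and Alpi lay at or below the array median on all 9 arrays. Summed over the 5 markers, the intensity was 126 to 142 in SHPCs of transplanted livers, 220 to 287 in SHPCs and 168 to 206 in hepatocytes. Their part in the level of Apoa4 was not tested. The member of that list with the largest differences was Fabp2, a fatty acid binding protein of the intestine, at −1.55 ± 0.26 (SE) in SHPCs of transplanted livers against SHPCs (limma adjusted p = 0.142). Fabp2 had log2 levels of 5.60, 5.95 and 5.40 in SHPCs of transplanted livers. The levels were 7.18, 6.78 and 7.64 in SHPCs and 6.70, 6.17 and 6.93 in hepatocytes. Fabp2 was the brightest of the 5 on all 9 arrays. Cdx2, the next brightest, lay between 5.09 and 5.66, with overlapping groups.

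Apoa5, which lies next to Apoa4 in the genome and promotes the clearance of plasma triglyceride, did not share its pattern. Its log2 levels were 10.21, 10.58 and 10.47 in SHPCs of transplanted livers, 10.50, 10.28 and 10.65 in SHPCs, and 10.63, 10.50 and 10.60 in hepatocytes. All 3 groups overlapped, and the differences were −0.06 ± 0.15 between the SHPC groups, −0.10 ± 0.15 for SHPCs against hepatocytes and −0.15 ± 0.15 for SHPCs of transplanted livers against hepatocytes (SE each, limma adjusted p = 0.908, 1 and 0.761).

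The 250 bases before the start of these neighbours are shown because the genes lie together while their levels differed in pattern. The sequences are RefSeq's for build GRCr8 and read 5′ to 3′. Capitals mark matches, on either strand, to AGGTCA, a half-site of nuclear receptors, to CAAAG, the core of sites of Hnf4a, and to CACGTG, the E-box that Usf proteins bind; no matches overlapped.
Apoa4, chr8:55435529-55435778, plus strand: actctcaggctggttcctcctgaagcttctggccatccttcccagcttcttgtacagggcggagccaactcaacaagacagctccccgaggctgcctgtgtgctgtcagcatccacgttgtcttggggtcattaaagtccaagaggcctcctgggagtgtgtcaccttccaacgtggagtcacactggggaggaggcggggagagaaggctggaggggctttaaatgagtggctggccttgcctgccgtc
Apoa5, chr8:55457621-55457870, plus strand, the more upstream of its listed starts: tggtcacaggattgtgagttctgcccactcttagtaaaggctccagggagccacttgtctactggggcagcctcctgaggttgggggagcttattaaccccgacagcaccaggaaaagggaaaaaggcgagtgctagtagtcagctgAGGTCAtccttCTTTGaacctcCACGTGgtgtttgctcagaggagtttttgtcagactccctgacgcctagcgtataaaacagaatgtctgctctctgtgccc
The Apoa5 window holds 1 match to each motif, at −103, −92 and −81 from the start, and these letters are not in the Apoa4 window. Among 33469 rat promoters of this length, 14.1% hold AGGTCA, 48.2% CAAAG and 5.59% CACGTG. Of the 7 apolipoprotein genes with a promoter in the table, read at their first listed start, 2 hold AGGTCA, 4 hold CAAAG and 2 hold CACGTG. A match is a description of the letters, not of a bound site.

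Apob (probe set 17814603) had log2 levels of 12.52, 12.57 and 12.60 in SHPCs of transplanted livers, 12.54, 12.27 and 12.53 in SHPCs, and 12.60, 12.36 and 12.46 in hepatocytes. The groups overlapped in all comparisons. The difference between the SHPC groups was 0.11 ± 0.13 (SE, 95% interval −0.18 to 0.41, limma adjusted p = 0.793), and SHPCs differed from hepatocytes by −0.02 ± 0.13 (95% interval −0.32 to 0.27, limma adjusted p = 1), a direction that turned to 0.022 after cyclic loess.

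Apoe, the ligand through which remnant particles enter cells, and Apoc1, an inhibitor of that uptake, are neighbours in the genome. Apoe was at 12.22, 12.22 and 12.14 in SHPCs of transplanted livers, 12.22, 11.99 and 12.25 in SHPCs, and 12.28, 12.25 and 12.19 in hepatocytes. Apoc1 was at 12.38, 12.31 and 12.19 in SHPCs of transplanted livers, 12.28, 12.02 and 12.20 in SHPCs, and 12.08, 12.09 and 12.22 in hepatocytes. For both genes all groups overlapped, and the 95% intervals of all their differences stayed between −0.36 and 0.45.

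Macrophages also express Apoe, and markers of Kupffer cells, which are liver macrophages, were not level between the groups. All 15 listed markers were measured, and their summed intensity was 3750 to 4363 in SHPCs of transplanted livers, 1893 to 3252 in SHPCs and 2632 to 3627 in hepatocytes. Of the 15, 15 had a positive difference between the SHPC groups with a median of 0.60, and 0 passed in limma over all genes (6 at an unadjusted p under 0.05, which 7.35% of all tested genes reached). Without SHPC array 2, the lowest in that sum, the median was 0.27, again with 15 positive. With all arrays, the 8 tested markers of stellate cells and fibroblasts were also all positive between the SHPC groups (median 0.27). So were the 5 of sinusoidal endothelium (median 0.25). Positive and negative markers numbered 3 and 4 for cholangiocytes and 3 and 3 for T and NK cells. For B cells they numbered 1 and 3, and for neutrophils and mast cells 2 and 3. Apoe differed by 0.04 ± 0.12 (SE) in the same comparison, a sign that turned to −0.043 without SHPC array 2 and to −0.21 after cyclic loess. Of the 15 markers, 13 were positive in SHPCs of transplanted livers against hepatocytes and 1 passed (limma adjusted p = 0.0456), where 1.18% of all genes did. For SHPCs against hepatocytes 12 were negative and 0 passed, where 0.0633% of all genes did. The part of Kupffer cells in the level of Apoe was not tested.

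Apoh, a plasma protein that binds phospholipids, was at 12.23, 12.29 and 12.29 in SHPCs of transplanted livers, 12.36, 11.99 and 12.32 in SHPCs, and 12.31, 12.04 and 12.25 in hepatocytes. Its lowest values were on the arrays that stood apart. The differences were 0.05 ± 0.14 between the SHPC groups, 0.02 ± 0.14 for SHPCs against hepatocytes and 0.07 ± 0.14 for SHPCs of transplanted livers against hepatocytes (SE each, limma adjusted p = 0.923, 1 and 0.890), and cyclic loess turned the first and the last to −0.20 and −0.13.

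Apob, Apoc1, Apoe and Apoh lay near the upper end of the arrays. None of the 9 genes came within 1 log2 unit of the brightest probe set of any array, whereas albumin (Alb) did on all 9, at 0.0089 to 0.30 below it. The closest was Apob, at 1.10 to 1.55 log2 units below, with 32 to 61 of 36685 probe sets above it. Apoc1, Apoe and Apoh lay 1.36 to 1.83 below, and Apoa2 1.93 to 3.34 below, with 101 to 348 probe sets above it.

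For the 40 tested genes with a mean log2 level over 12, the median absolute difference between SHPCs and hepatocytes was 0.07 and the 95th percentile 0.28, against 0.15 and 0.73 for the 203 genes between 10 and 12, where Apoa2 lies. Between the SHPC groups these values were 0.16 and 0.39 over 12, against 0.30 and 0.86. For SHPCs of transplanted livers against hepatocytes they were 0.16 and 0.51, against 0.32 and 1.2. For SHPCs against hepatocytes, of those 203 genes, 1.97% differed by as much as Apoa2 or more. In SHPCs of transplanted livers against hepatocytes 8.37% of them did. Whether the signal of the brightest genes is compressed was not tested.

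**Figure D3:**
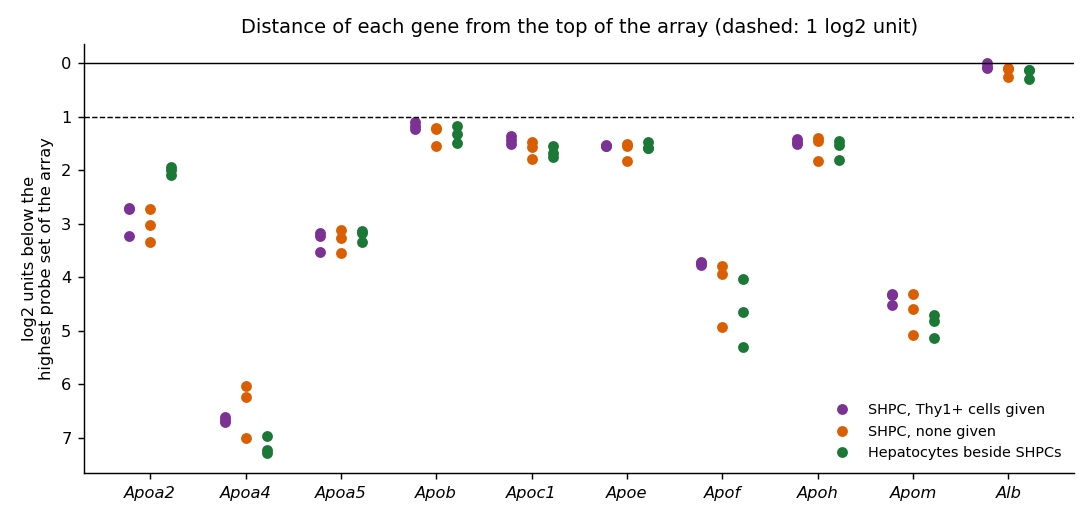
Distance in log2 units below the brightest probe set of the array (y axis, 0 at the top) for each apolipoprotein gene and for Alb on each of the 9 arrays, coloured by group. Alb lies within 0.30 of the top, Apob, Apoc1, Apoe and Apoh between 1.10 and 1.83, and Apoa4 between 6.03 and 7.29.

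Apof, known in humans as an inhibitor of lipid transfer between particles, had the largest spread of the 9 genes over all arrays (SD 0.56 on the log2 scale, n = 9). It was at 9.97, 10.03 and 9.98 in SHPCs of transplanted livers, 9.98, 8.89 and 9.84 in SHPCs, and 9.74, 8.54 and 9.13 in hepatocytes. The low values were those of SHPC array 2, at 1.02 below the mean of the other 2 SHPC arrays, and hepatocyte array 2, at 0.89 below the mean of its own. All transplanted arrays lay above the hepatocyte arrays, by a log2 difference of 0.86 ± 0.33 (SE, limma adjusted p = 0.390), which was 0.56 without hepatocyte array 2. Between the SHPC groups it differed by 0.42 ± 0.33 (SE, limma adjusted p = 0.729), and by 0.08 without SHPC array 2. In SHPCs against hepatocytes it differed by 0.43 ± 0.33 (SE, limma adjusted p = 1), and by 0.77 without SHPC array 2 or 0.14 without hepatocyte array 2.

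The genes that followed Apof most closely over the 9 arrays were Qser1 (Pearson r = 0.988), Nampt (0.986), Morf4l2 (0.982), Ahsg (0.982) and Slc30a5 (0.981), given as a description over arrays of which 2 stood apart.

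Apom, which carries a signalling sphingolipid on high-density lipoprotein, was at 9.42, 9.44 and 9.18 in SHPCs of transplanted livers, 9.45, 8.75 and 9.19 in SHPCs, and 9.05, 8.71 and 8.97 in hepatocytes. The transplanted arrays all lay above the hepatocyte arrays, a log2 difference of 0.44 ± 0.19 (SE, 95% interval 0.01 to 0.86, limma adjusted p = 0.462). The differences of 0.22 ± 0.19 in both other comparisons (SE, limma adjusted p = 0.743 between the SHPC groups and 1 for SHPCs against hepatocytes) had overlapping arrays. Without SHPC array 2 the first was 0.03 and the second 0.41.

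Counted together, 0 of 9 genes passed between the SHPC groups, where 0.00633% of all tested genes did, and 0 of 9 had arrays of both groups apart, against 15.8% of all genes (5.23% lower). With no adjustment, 0 had a limma p under 0.05, which 7.35% of all genes reached. For SHPCs against hepatocytes 0 of 9 passed (0.0633% of all genes, 0.0317% higher and 0.0317% lower), and 2 of the 9 had an unadjusted p under 0.05, against 4.12% of all genes. Of the 9, 1 lay wholly lower, Apoa2, and 1 wholly higher, Apoa4, against 2.49% and 2.72% of all genes, 5.22% in all. With the replicate number as a block over all 9 arrays, 35 genes passed in that comparison in place of 10, again with 0 of the 9. Since the list was chosen with earlier results of these data known, its counts beside the shares of all genes are descriptions.

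For SHPCs of transplanted livers against hepatocytes 0 of 9 passed (1.18% of all genes), and 3 of the 9 had an unadjusted p under 0.05, against 10.4% of all genes. Here 1 lay wholly lower, Apoa2, and 3 wholly higher, Apoa4, Apof and Apom, against 6.64% and 12.6% of all genes. The median log2 difference of the 9 genes was 0.09 between the SHPC groups, 0.02 for SHPCs against hepatocytes and 0.09 for SHPCs of transplanted livers against hepatocytes. Over all genes tested those medians were 0.02, −0.0062 and −0.0013. Without SHPC array 2 the first median of the 9 genes was −0.04 and the second 0.11, and without hepatocyte array 2 the last was 0.04.

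**Figure D4:**
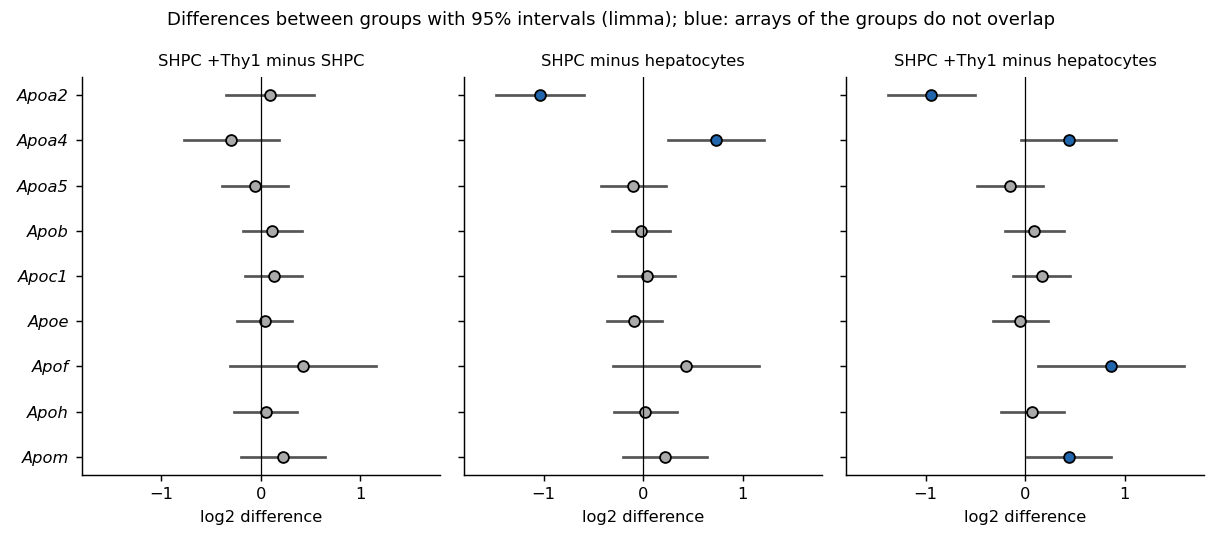
Log2 difference (x axis) of each apolipoprotein gene with its 95% interval from limma, for SHPCs of transplanted livers minus SHPCs (left), SHPCs minus hepatocytes (middle) and SHPCs of transplanted livers minus hepatocytes (right). Blue points have non-overlapping arrays. Apoa2 lies at −1.03 and −0.94 in the comparisons with hepatocytes and at 0.09 between the SHPC groups.

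Over the 9 arrays the log2 levels of Apoa2 had a Pearson r of 0.62 with Apoe and 0.46 with Apoa5, of −0.12 with Apoc1 and −0.043 with both Apob and Apoh, and of −0.35 with Apom, −0.43 with Apof and −0.53 with Apoa4. Apob and Apoh had 0.93 with each other, and Apof and Apom 0.92. These are descriptions over 9 arrays that share their groups, and the arrays that stood apart weigh in the high values.

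Of other apolipoproteins and relatives, 12 were measured and 11 were bright enough to test. None passed in any comparison in limma, and 1, 0 and 1 had an unadjusted p under 0.05, in each case Apobec1. Of all tested genes 7.35%, 4.12% and 10.4% reached that p in the same comparisons. Apoc2, the activator of lipoprotein lipase, averaged 11.15 ± 0.04 in SHPCs of transplanted livers, 11.17 ± 0.41 in SHPCs and 10.96 ± 0.25 in hepatocytes (log2, SD, n = 3 each). Its neighbour Apoc4 averaged 10.75 ± 0.16, 10.79 ± 0.32 and 10.59 ± 0.23 in the same order of groups, and Clu, or apolipoprotein J, 10.91 ± 0.10, 10.70 ± 0.28 and 10.93 ± 0.20. For all 3 the groups overlapped in each comparison. Naxe, Apon, Apoo, Apool, Apol9a, Apold1 and Apobr had differences between −0.31 (Apobr) and 0.81 (Apool) over the 3 comparisons, and Lpal2 was too dim to test.

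Apobec1, the enzyme that edits the Apob transcript into its short form in rat liver, was higher in SHPCs of transplanted livers than in both other groups, though not past the threshold. Its log2 levels were 7.32, 7.16 and 7.26 in SHPCs of transplanted livers, 6.69, 6.07 and 6.67 in SHPCs, and 6.58, 6.20 and 6.69 in hepatocytes. All transplanted arrays lay above all others, by 0.77 ± 0.20 against SHPCs and 0.75 ± 0.20 against hepatocytes (SE, limma adjusted p = 0.344 and 0.137).

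Genes of lipoprotein assembly, receptors, transport and remodelling formed a list of 50, of which 42 were tested. In limma 0 of 42 passed in each comparison. Of all tested genes 0.00633% passed between the SHPC groups, 0.0633% for SHPCs against hepatocytes and 1.18% for SHPCs of transplanted livers against hepatocytes. With an unadjusted p under 0.05, 9 genes were higher and 1 lower between the SHPC groups, 2 and 1 for SHPCs against hepatocytes, and 10 and 2 for SHPCs of transplanted livers against hepatocytes. Over all tested genes 7.35%, 4.12% and 10.4% reached that p. Those genes also leaned upward, with 800 higher and 361 lower, 365 and 286, and 1117 and 524 in the same order. The list's median difference was 0.21 between the SHPC groups, −0.01 for SHPCs against hepatocytes and 0.22 for SHPCs of transplanted livers against hepatocytes. The first rested on SHPC array 2: without it the median was 0.06, with 25 genes positive and 17 negative, against 33 and 9 with it. The last was 0.04 without hepatocyte array 2, with 23 positive and 19 negative against 28 and 14.

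Among assembly genes, P4hb, the disulfide isomerase that is also a subunit of the microsomal triglyceride transfer protein, came closest. It averaged 11.40 ± 0.01 in SHPCs of transplanted livers, 11.06 ± 0.17 in SHPCs and 10.73 ± 0.14 in hepatocytes (log2, SD, n = 3 each), and its difference between the first and the last was 0.67 ± 0.14 (SE, limma adjusted p = 0.0532). Pdia3, another disulfide isomerase, differed by 0.64 ± 0.18 (SE, limma adjusted p = 0.191) between the same groups. Mttp, the large subunit that loads lipid onto Apob, differed by 0.14 ± 0.25 between the SHPC groups, −0.03 ± 0.25 for SHPCs against hepatocytes and 0.11 ± 0.25 for SHPCs of transplanted livers against hepatocytes (SE, limma adjusted p = 0.868, 1 and 0.903). The first of these turned to −0.16 and the second to 0.27 without SHPC array 2, and the third to −0.03 without hepatocyte array 2. Plin2, a coat protein of lipid droplets, was lower in transplanted SHPCs than in hepatocytes by 1.47-fold (log2 difference −0.56 ± 0.17 SE, limma adjusted p = 0.241).

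Among receptors and transporters, the high-density lipoprotein receptor Scarb1 was higher in SHPCs than in hepatocytes, at 8.24 ± 0.34 and 7.59 ± 0.23 (log2, SD, n = 3 each, difference 0.64 ± 0.19 SE, limma adjusted p = 0.643). The cholesterol exporters Abca1 and Abcg1, which load lipid onto high-density lipoprotein, differed by 0.52 ± 0.16 and 0.56 ± 0.16 in SHPCs of transplanted livers against SHPCs, and the receptor Lsr by 0.60 ± 0.18 (SE, limma adjusted p = 0.478, 0.453 and 0.461). Pltp, the phospholipid transfer protein, was lower in SHPCs than in hepatocytes at −0.68 ± 0.27, and Mylip, which marks lipoprotein receptors for breakdown, at −0.27 ± 0.14 (SE, limma adjusted p = 1 for both). Without SHPC array 2 these differences were −0.36 and −0.17, and that of Lsr between the SHPC groups was 0.39.

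**Figure D5:**
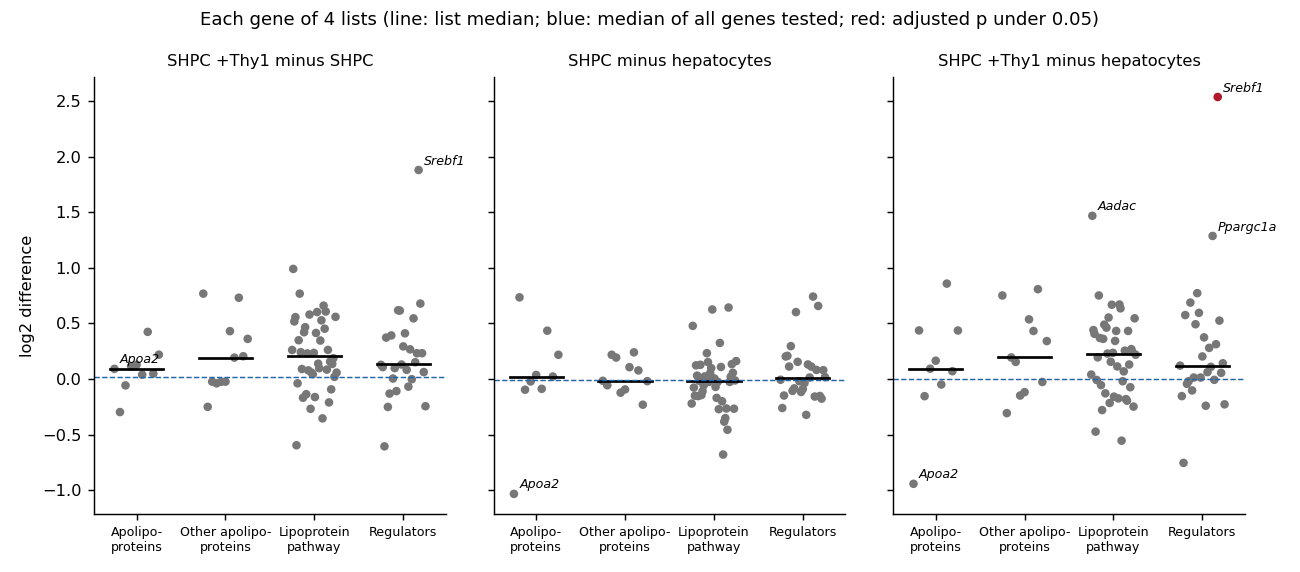
Log2 difference (y axis) of each tested gene of 4 lists, in SHPCs of transplanted livers minus SHPCs (left), SHPCs minus hepatocytes (middle) and SHPCs of transplanted livers minus hepatocytes (right). Black lines are list medians, the dashed blue line is the median of all genes tested, and the red point, Srebf1 at 2.54, has a limma adjusted p under 0.05. Apoa2 is the lowest point of its list in the middle and right panels.

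Of 29 transcription factors known to act on apolipoprotein and lipid genes, 27 were tested and 1 passed, in 1 comparison. That was SHPCs of transplanted livers against hepatocytes, where 1.18% of all tested genes passed. Srebf1, the driver of lipid synthesis genes, was higher in SHPCs of transplanted livers than in hepatocytes, with log2 levels of 8.57, 8.16 and 8.02 against 5.77, 5.73 and 5.63 (difference 2.54 ± 0.32 SE, limma adjusted p = 0.00748). Its limma adjusted p was 0.0546 without array 1 of the transplanted group. Between the SHPC groups Srebf1 differed by 1.88 ± 0.32 (SE, limma adjusted p = 0.145), with SHPC arrays of 7.24, 6.11 and 5.76, all below the transplanted arrays. That difference passed without SHPC array 1 (2.31, limma adjusted p = 0.00525). For SHPCs against hepatocytes Srebf1 differed by 0.66 ± 0.32 (SE, limma adjusted p = 1). Hnf4a, which binds the promoters of most apolipoprotein genes, was at 8.76, 8.84 and 8.84 in SHPCs of transplanted livers, 8.91, 8.42 and 8.81 in SHPCs, and 9.18, 8.64 and 8.58 in hepatocytes. Its groups overlapped in each comparison.

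The other factors with the smallest p in each comparison missed the threshold. Between the SHPC groups these were Srebf2, the driver of cholesterol synthesis genes, at 0.68 ± 0.19, and the bile acid receptor Nr1h4 at 0.41 ± 0.16 (SE, limma adjusted p = 0.440 and 0.636). For SHPCs against hepatocytes they were Hnf4g at 0.60 ± 0.23 and Ppargc1a, a coactivator of gluconeogenic and oxidative genes, at 0.74 ± 0.31 (SE, limma adjusted p = 1 for both). For SHPCs of transplanted livers against hepatocytes they were Foxa3 at 0.69 ± 0.17 and Ppargc1a at 1.29 ± 0.31 (SE, limma adjusted p = 0.106 for both).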

How the data were processed

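The authors deposited 1 table of linear intensity values, 36685 probe sets by 9 whole-transcript Affymetrix arrays, made with RMA per the submitters' processing notes. The sources used here give neither its version and settings nor a genome build. Here the log2 was taken. The platform annotation gave 18511 probe sets 1 symbol each, and of several for a gene the brightest was used. Genes above the array's 25th percentile on at least 3 arrays were tested. Groups were compared in limma 3.58.1 (R 4.3.3) as 3 means fitted together over 9 arrays, with eBayes and Benjamini-Hochberg adjustment over 15793 genes at 0.05. The fit was checked on simulated data with independent genes and no shift of whole arrays. That check does not cover the arrays that stood apart. The number of arrays, 3 a group, limits the precision.

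Same-numbered SHPC and hepatocyte arrays had correlated deviations from their group means (r from 0.34 to 0.70 over tested genes). The numbers were used as pairs or as a block in alternative fits only, and the fit reported here had no block. This pairing comes from the data, and the labels do not state it. Numbers of the transplanted group did not pair with the others.

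Apart from the 10 apolipoprotein genes and Alb, named were other apolipoproteins where measured, list genes that passed, or the 4 (pathway) and 3 (transcription factors) with the smallest p in a comparison, and the 5 genes most correlated with Apoa2 and with Apof. Mttp, Hnf4a and Fabp2 were named outside that rule, after their values were seen. Members and lists were chosen with earlier results of these data known. Alternatives were other scalings (median centring, renewed quantile normalization, cyclic loess), other filters, the mean of probe sets, array weights, a replicate block, the compared groups alone and leaving out arrays; for list medians and list genes they were added after seeing the data.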

Additional observations from a re-analysis of the deposited data

How the results depend on the processing

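Over the 19 or 20 alternatives, Apoa2 stayed lower in both SHPC groups than in hepatocytes and Apoa4 stayed higher; the causes of changed calls were not tested. Leaving out 1 array at a time gave 0 to 24, 0 to 53 and 31 to 473 genes called between the SHPC groups, for SHPCs against hepatocytes and for transplanted SHPCs against hepatocytes, with 0 to 0, 0 to 1 and 0 to 1 apolipoprotein genes and 0 to 0, 0 to 0 and 0 to 3 lipoprotein pathway genes. In the same order of comparisons, genes called were 0, 0 and 47 after median centring, 40, 34 and 439 after cyclic loess, 17, 17 and 328 after renewed quantile normalization, 0, 0 and 304 with the compared groups alone, 259, 375 and 2685 with array weights, and 23, 61 and 576 without both arrays that stood apart. Between the SHPC groups these calls split into 16 higher and 24 lower after cyclic loess and 3 and 14 after renewed quantile normalization, against 0 and 1 as reported.

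With the replicate number as a block the counts were 64, 35 and 367, and 77 for SHPCs against hepatocytes alone in pairs; apart from Apoa2 in that paired fit the block changed no apolipoprotein call, and it called 2 lipoprotein pathway genes in transplanted SHPCs against hepatocytes. The transplanted arrays share only a number with the others (r of −0.094 to 0.0023 with SHPCs), so the block says nothing further about them. Not every SHPC array correlated best with its own number.

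Apolipoprotein calls appeared with array weights (1, 3 and 3), without both arrays that stood apart (1 for SHPCs and 1 for transplanted SHPCs against hepatocytes), in the paired fit (1), and in transplanted SHPCs against hepatocytes after renewed quantile normalization (1), cyclic loess (1) and with the compared groups alone (1). Lipoprotein pathway calls were 1, 2 and 14 with array weights, 1 and 1 in the comparisons with hepatocytes after cyclic loess, 1 and 3 there without both arrays that stood apart, and 1 each for transplanted SHPCs against hepatocytes after renewed quantile normalization, with the filter at the median and with the compared groups alone. With array weights 259, 375 and 2685 of the 15793 tested genes passed in the 3 comparisons. The counts of all genes for the other settings, except the filter at the median, are given above. The array weights set SHPC array 2 at 0.126 and hepatocyte array 3 at 4.03.

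Small differences changed sign. Between the SHPC groups, median centring, under which the median of all genes was 0.12 in place of 0.02, gave Apoa5 0.045, renewed quantile normalization gave Apoa2 −0.0092, and cyclic loess gave Apoa2 −0.16, Apob −0.13, Apoc1 −0.12, Apoe −0.21, Apoh −0.20 and Apom −0.024. Array weights gave Apoa2 −0.034, Apoe −0.034 and Apoh −0.052, and leaving out both arrays that stood apart gave Apoa2 −0.046, Apoe −0.043 and Apoh −0.068. For SHPCs against hepatocytes Apoh was −0.019 after renewed quantile normalization, Apob 0.022 after cyclic loess, 0.060 with array weights and 0.011 without both arrays, and Apoe 0.026 with array weights. For transplanted SHPCs against hepatocytes Apoe was 0.043 after median centring, Apob −0.11, Apoc1 −0.038 and Apoh −0.13 after cyclic loess, and Apoh −0.0095 without both arrays. Leaving out single arrays, the range between the SHPC groups was −0.046 to 0.28 for Apoa2, −0.16 to 0.045 for Apoa5, −0.043 to 0.088 for Apoe and −0.068 to 0.12 for Apoh. For SHPCs against hepatocytes it was −0.18 to 0.0010 for Apoa5, −0.079 to 0.067 for Apob, −0.020 to 0.11 for Apoc1 and −0.058 to 0.14 for Apoh, and for transplanted SHPCs against hepatocytes −0.0095 to 0.12 for Apoh. Over all alternatives Mttp, which changed sign in each comparison, ranged from −0.17 to 0.38 between the SHPC groups, from −0.27 to 0.27 for SHPCs against hepatocytes and from −0.083 to 0.25 for transplanted SHPCs against hepatocytes. After cyclic loess the median of the 9 apolipoprotein genes was −0.16, 0.067 and −0.11, and that of the lipoprotein pathway 0.056, 0.020 and 0.062.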

Other observations

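Further genes with large differences in the lists were picked after their values were seen. Creb3l3, a transcription factor of the hepatocyte that acts on Apoa4 and other apolipoprotein genes in mice, averaged 8.88 ± 0.18 in SHPCs of transplanted livers, 9.49 ± 0.37 in SHPCs and 9.64 ± 0.43 in hepatocytes (log2, SD, n = 3 each). The transplanted arrays all lay below the arrays of both other groups (differences −0.61 ± 0.24 and −0.76 ± 0.24 SE, limma adjusted p = 0.653 and 0.265). Aadac, an enzyme of lipid turnover in the hepatocyte, had log2 levels of 8.96, 9.04 and 8.94 in SHPCs of transplanted livers, 8.76, 6.75 and 8.45 in SHPCs, and 8.21, 6.35 and 7.98 in hepatocytes. Its low values were those of the arrays that stood apart.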
